A study of Homo sapiens with 30 samples.

Results

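The 40 mitosis and G2/M genes described here encode the cyclins, kinases, spindle checkpoint proteins, kinetochore proteins, motors and cytokinesis factors with which a cell enters and completes division. They were chosen by symbol, with earlier results of these data known. All 40 were found, each with 1 Ensembl identifier, among the 60675 gene rows of the count table. RNA sequencing measured them in HT29, a cell line long established from a human adenocarcinoma of the colon, 24 h after cells received a traditional herbal formula, extracted with 70% ethanol, or vehicle. Soshiho-tang and Yijin-tang were given at 20, 100 and 500 µg/mL with 3 libraries per dose, Okbyeongpung-san at the same 3 doses with 2 libraries per dose, and Soyo-san with 1 library per dose. The vehicle group had 3 libraries, which makes 30 libraries in 13 groups. The sample labels give DMSO at 0.1% as the vehicle and the design text gives 2%, so the solvent content is uncertain. The labels give the same 3 doses for every extract, but by the design text an extract with a low IC20 was dosed from that value, so the doses are uncertain too. Wortmannin, the positive control of the design text, is not analysed here. By their titles, the Soyo-san libraries and the third Okbyeongpung-san replicate belong to a batch called D and all others to one called E, and what these letters stand for is not said. The vehicle libraries carry names of a set of their own, so an effect of vehicle and an effect of that set cannot be told apart. Whether replicates came from separate cultures is not stated, and a p-value here reflects the spread among the libraries alone, which may be technical.

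Cells build up mitotic transcripts in G2 and use their products within minutes to hours of mitosis. Cyclin B with the kinase CDK1 drives entry, the spindle checkpoint holds anaphase until every chromosome is attached, and the anaphase-promoting complex with CDC20 then marks cyclin B and securin for destruction. Many of these genes are transcribed together late in the cycle, through promoters that carry CCAAT boxes and a cell cycle homology region (CHR), which are bound by NF-Y and by the MuvB complex with B-MYB and FOXM1. Their summed RNA is widely used as a marker of how many cells in a culture are dividing. In bulk RNA, fewer cells in G2/M and less RNA per such cell cannot be told apart.

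Promoter letters were read for 33 of the 40 genes, from 43 windows that run from 250 bases before to 50 bases after a RefSeq gene start on GRCh38.p14. AURKA, BIRC5, BUB3, FOXM1, TPX2, TTK and UBE2C had no entry. The CHR letters (TTTGAA or TTCGAA, either strand) were in 29 of the 43 windows (67.4%), against 16.4% of all 35116 windows. CCAAT (either strand) was in 32 of the 43 (74.4%), against 34.6% of all windows. Within the 130 bases before and at the gene start, both were in 17 of the 43 windows (39.5%), against 1.61% of all windows. The 8 sequences below are 130-base stretches printed 5′ to 3′ on the gene's strand, with CHR and CCAAT letters in capitals. PLK1, PRC1, KIF23, BUB1B and CDC20 are shown because they carry the CHR letters and rose with dose of Soshiho-tang, CCNB1 because it rose and held CCAAT alone here, and CCNB2 and KIF20A because they did not pass that test.
PLK1 (chr16:23678759-23678888, plus strand): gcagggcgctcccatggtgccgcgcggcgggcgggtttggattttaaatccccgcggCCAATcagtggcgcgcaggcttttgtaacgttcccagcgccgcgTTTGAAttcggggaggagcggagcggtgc
PRC1 (chr15:90994536-90994665, minus strand): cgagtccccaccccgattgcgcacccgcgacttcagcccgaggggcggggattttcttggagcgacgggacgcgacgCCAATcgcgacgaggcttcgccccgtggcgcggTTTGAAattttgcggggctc
KIF23 (chr15:69414219-69414348, plus strand): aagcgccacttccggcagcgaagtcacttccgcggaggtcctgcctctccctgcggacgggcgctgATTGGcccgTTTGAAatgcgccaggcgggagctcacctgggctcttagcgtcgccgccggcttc
BUB1B (chr15:40160939-40161068, plus strand): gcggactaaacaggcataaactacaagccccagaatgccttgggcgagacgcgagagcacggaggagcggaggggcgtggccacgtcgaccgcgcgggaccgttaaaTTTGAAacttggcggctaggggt
CDC20 (chr1:43358851-43358980, plus strand): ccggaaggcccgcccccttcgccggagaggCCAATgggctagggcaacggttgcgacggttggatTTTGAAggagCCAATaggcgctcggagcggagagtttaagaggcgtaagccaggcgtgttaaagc
CCNB1 (chr5:69167020-69167149, plus strand): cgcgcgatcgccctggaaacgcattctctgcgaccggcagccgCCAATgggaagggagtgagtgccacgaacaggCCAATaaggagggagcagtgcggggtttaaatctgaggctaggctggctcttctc
CCNB2 (chr15:59105016-59105145, plus strand): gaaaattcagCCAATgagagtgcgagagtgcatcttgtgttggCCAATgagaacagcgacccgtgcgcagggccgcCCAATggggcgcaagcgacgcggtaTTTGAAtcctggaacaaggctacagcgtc
KIF20A (chr5:138178982-138179111, plus strand): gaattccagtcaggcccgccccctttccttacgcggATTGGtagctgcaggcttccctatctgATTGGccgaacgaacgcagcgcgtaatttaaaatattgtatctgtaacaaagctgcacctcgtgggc

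Each library held 18.5 M to 36.2 M counts. Levels are given as counts per M (CPM) after scaling by the trimmed mean of M-values (TMM). Groups were compared on counts with edgeR's quasi-likelihood test, with Benjamini-Hochberg adjustment over all genes, and rise and fall are written of a gene with an adjusted p below 0.05. All 40 genes passed the filter on low counts in both fits. All are protein-coding in GENCODE release 29. On GRCh38 the genes named most often lie at chr5:69167010-69178245 (CCNB1), chr16:23677656-23690367 (PLK1), chr4:120055608-120067074 (MAD2L1), chr1:43358955-43363203 (CDC20) and chr1:197084128-197146694 (ASPM). The epithelial markers KRT8, KRT18, EPCAM and CDH1 were high in all 30 libraries. CDX1 was low, with 0.37 to 1.22 CPM, as was CDX2, with 2.63 to 4.84 CPM. Summed CPM over 10 epithelial markers was 11440 to 14420, against 1.72 to 3.69 over 6 fibroblast, 7.09 to 11.9 over 5 immune and 0.80 to 2.09 over 3 endothelial markers. COL1A2 was at 0 in 28 libraries, CD3E in 29, CDH5 in 26 and PTPRC in 20. The share of counts on 13 mitochondrially encoded protein genes was 9.46%, 7.91% and 8.90% in Soshiho-tang at 500 µg/mL, against 10.4%, 10.7% and 9.51% at 20 µg/mL and 11.8%, 9.95% and 12.1% in vehicle. The share was lower at 500 µg/mL than in any library at 20 µg/mL or in vehicle. Its part in the results was not tested beyond taking these genes out of the totals. After that 22 of the 40 rose and none fell at 500 against 20 µg/mL, given without the share of all genes in that fit.

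The set was abundant. Divided by exon length, TPX2, which targets Aurora A to the spindle, led with a mean of 96.2 CPM per kb over the 30 libraries. UBE2C, the ubiquitin-conjugating enzyme of the anaphase-promoting complex, followed with 84.8, TOP2A, which untangles chromosomes, with 84.4, and MKI67, the coat protein of mitotic chromosomes, with 81.0 CPM per kb. The lowest were CENPE, the kinetochore motor, with 6.72, NUF2 of the NDC80 complex with 6.66 and the phosphatase CDC25C with 5.38 CPM per kb. The levels of most genes moved little, and the coefficient of variation over the 30 libraries lay between 3.62% for BUB3 and 16.6% for CENPE.

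**Figure D1:**
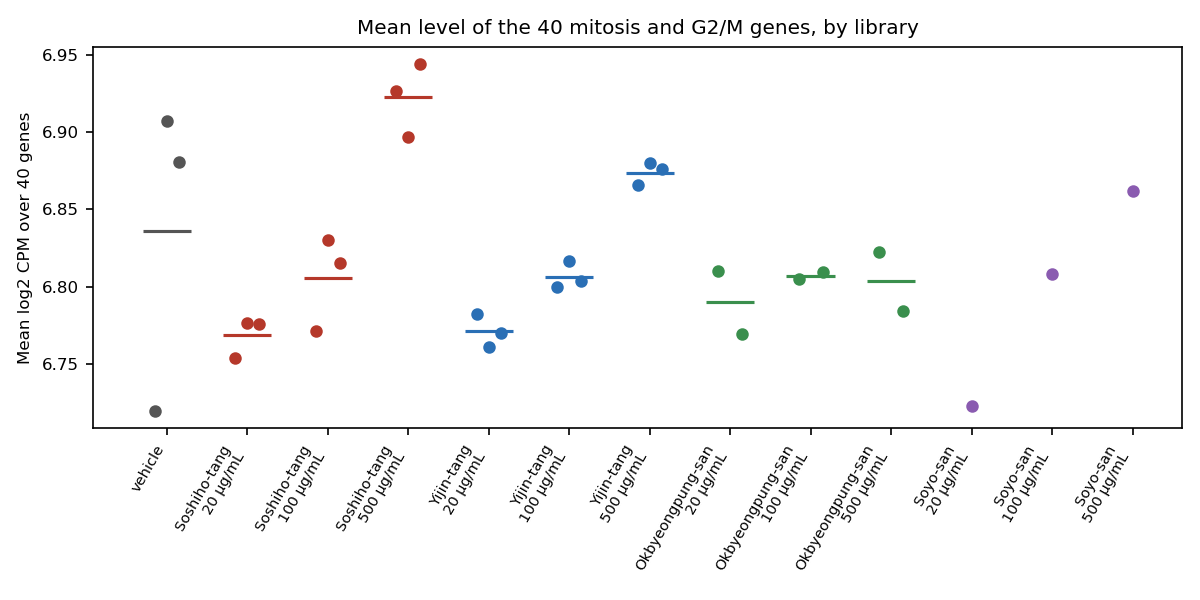
Mean log2 CPM over the 40 genes (vertical axis) in each library (points), by group along the horizontal axis, with group means as bars. In Soshiho-tang and in Yijin-tang the 3 libraries at 500 µg/mL lie above all libraries at 20 µg/mL, and the vehicle libraries span 6.72 to 6.91.

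The mean log2 CPM over the 40 genes summarises the set in each library, and is given as a description with no test. Vehicle averaged 6.84 ± 0.101 (SD, n = 3), and its libraries lay at 6.72, 6.91 and 6.88. Soshiho-tang averaged 6.77 ± 0.013 at 20, 6.81 ± 0.031 at 100 and 6.92 ± 0.024 at 500 µg/mL (SD, n = 3 each). Yijin-tang averaged 6.77 ± 0.011 at 20, 6.81 ± 0.0089 at 100 and 6.87 ± 0.0074 at 500 µg/mL (SD, n = 3 each). Vehicle replicate 1 lay below every Soshiho-tang and Yijin-tang library, and the vehicle range held every library at the low and medium doses of both formulas within it. Okbyeongpung-san averaged 6.79, 6.81 and 6.80 from low to high dose (n = 2 each), with no order by dose. Soyo-san had 6.72, 6.81 and 6.86 in its 1 library per dose.

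Within Soshiho-tang, 22 of the 40 mitosis genes rose at 500 against 20 µg/mL and none fell, while 13.3% of all 15882 genes tested rose, 13.5% fell and 26.8% passed in either direction. The rises were small, from 9.8% for BUB3 to 21.9% for TTK, with a median log2 fold change of 0.154 over all 40 genes against a median of -0.008 over all genes. The estimate was above 0 for 37 of the 40. For 30 of the 40, every library at 500 µg/mL lay above every library at 20 µg/mL, a separation that 22.2% of all genes showed.

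Of the 9 kinases, cyclins and regulators of mitotic entry, 6 rose. CCNB1, which encodes cyclin B1, had 189, 192 and 195 CPM in Soshiho-tang at 500 µg/mL, against 156, 158 and 161 CPM at 20 µg/mL. The groups did not overlap, and the log2 fold change was 0.27 (SE 0.040, adjusted p = 6.58e-06 by edgeR's quasi-likelihood test). CDK1, its kinase partner, had 92.3, 94.3 and 96.0 CPM at 500 µg/mL, against 78.9, 75.7 and 84.5 CPM at 20 µg/mL, without overlap (0.24, SE 0.055). PLK1, the kinase that matures centrosomes and activates CDC25, had 187, 179 and 182 CPM at 500 µg/mL, against 151, 163 and 151 CPM at 20 µg/mL. CDC25B, the phosphatase that starts CDK1 activation, had 156, 158 and 155 CPM at 500 µg/mL, against 126, 141 and 129 CPM at 20 µg/mL. Both separated fully, with log2 fold changes of 0.23 for PLK1 and 0.24 for CDC25B. CCNA2, the cyclin of S phase and G2, changed by 0.24 and the late-cycle transcription factor FOXM1 by 0.15, both past the test. FOXM1 had 225, 218 and 215 CPM at 500 µg/mL, against 199, 206 and 188 CPM at 20 µg/mL. The other three did not pass: AURKA, the centrosomal Aurora kinase, had 169.6, 168 and 172 CPM at 500 µg/mL, against 152, 160.3 and 158 CPM at 20 µg/mL. Its groups were separate (0.11, adjusted p = 0.054 by edgeR), whereas those of CCNB2 (0.08) and CDC25C (0.03) overlapped.

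All 5 spindle checkpoint genes rose. MAD2L1, whose product MAD2 sequesters CDC20 until chromosomes are attached, had 92.7, 94.3 and 92.9 CPM at 500 µg/mL, against 75.6, 76.0 and 78.8 CPM at 20 µg/mL. Its log2 fold change was 0.28 (SE 0.049, adjusted p = 7.84e-05 by edgeR). TTK, the kinase MPS1 that starts checkpoint signalling, had the largest change of the 40, 0.29 (SE 0.073), with 56.1, 53.4 and 61.4 CPM at 500 µg/mL, against 46.8, 44.8 and 48.1 CPM at 20 µg/mL. BUB1 and BUB1B, which act at unattached kinetochores, changed by 0.22 and 0.18, and BUB3, which brings them there, by 0.13. All 3 anaphase genes rose too. CDC20, the activator that MAD2 holds back, had 168, 173 and 165 CPM at 500 µg/mL, against 140.0, 147 and 136 CPM at 20 µg/mL (0.26, SE 0.047). PTTG1, which encodes securin, changed by 0.23 and UBE2C by 0.18.

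Of the 11 motors and microtubule-binding proteins, 6 rose, namely KIF23, KIF2C, KIF4A, TPX2, PRC1 and ASPM. KIF23, a motor of the central spindle, had 147, 138 and 144 CPM at 500 µg/mL, against 123, 125 and 127 CPM at 20 µg/mL (0.19, SE 0.059). ASPM, a spindle pole protein, had 229.9, 240.2 and 245 CPM at 500 µg/mL, against 213, 209.5 and 222 CPM at 20 µg/mL (0.15, SE 0.041). PRC1, which bundles midzone microtubules, changed by 0.17, the microtubule depolymerase KIF2C by 0.19, TPX2 by 0.18 and the chromokinesin KIF4A by 0.15. The other 5 did not pass. KIF11, the motor that pushes spindle poles apart, was at 0.14. The microtubule-binding spindle proteins DLGAP5, HMMR and NUSAP1 were at 0.15, 0.04 and 0.03. KIF20A, a motor needed for cytokinesis, had 64.4, 66.4 and 65.6 CPM at 500 µg/mL, against 64.1, 68.5 and 64.2 CPM at 20 µg/mL, an overlap with a log2 fold change of -0.00. Both cytokinesis genes rose. ECT2, which activates RhoA at the cleavage furrow, had 300.1, 304 and 314 CPM at 500 µg/mL, against 276, 262 and 278 CPM at 20 µg/mL (0.17, SE 0.052), and ANLN, the anillin scaffold, changed by 0.22.

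None of the 3 passenger complex genes, the 5 centromere and kinetochore genes or the 2 chromosome proteins passed this test by edgeR. Among all 40 genes, 29 were higher and none lower at an unadjusted p below 0.05, against 36.7% of all genes in either direction. DESeq2 called 23 higher and none lower, given without the share of all genes that it called. AURKB, the kinase of the passenger complex, was at -0.00, INCENP, its scaffold, at 0.08 and BIRC5, which encodes survivin, at 0.12. CENPA, the centromeric histone, was at 0.13, and NDC80 and NUF2, which grip microtubules, were at 0.16 and 0.22. CENPE and CENPF, large kinetochore proteins, were at -0.02 and 0.00. CENPF had 323, 305 and 328 CPM at 500 µg/mL, against 318, 308 and 325 CPM at 20 µg/mL, with full overlap. MKI67 had 1137, 1046 and 1135 CPM at 500 µg/mL, against 1036, 1063 and 1011 CPM at 20 µg/mL, which overlapped (0.09, adjusted p = 0.218 by edgeR). TOP2A had 577, 569 and 594 CPM at 500 µg/mL, against 511, 529 and 549.6 CPM at 20 µg/mL, separate groups with an adjusted p of 0.0892 by edgeR.

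**Figure D2:**
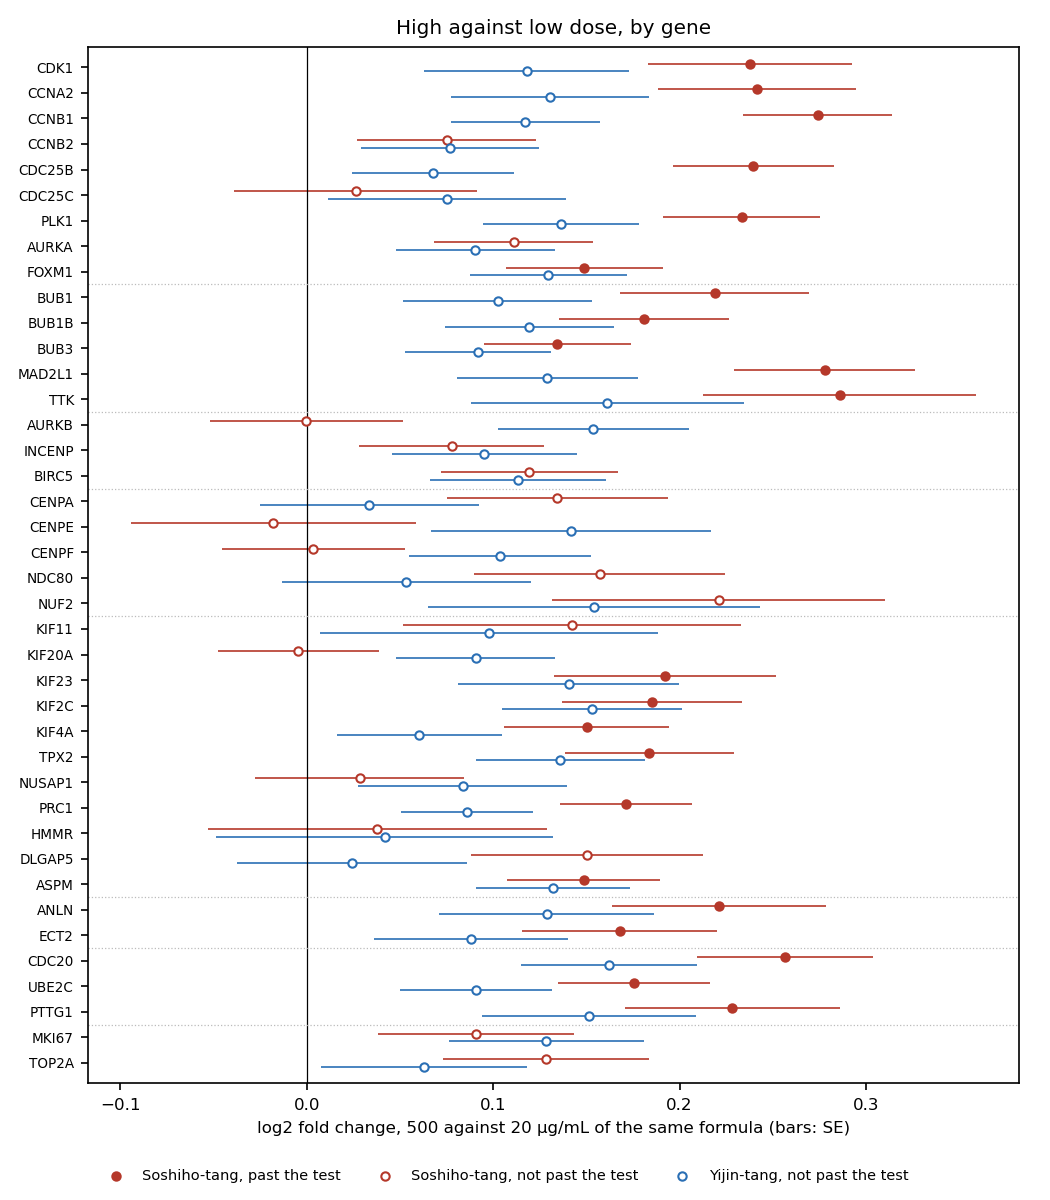
Log2 fold change of each of the 40 genes at 500 against 20 µg/mL within Soshiho-tang (red) and within Yijin-tang (blue), with SE bars, filled where past edgeR's test and grouped by role between dotted lines. Soshiho-tang values run from -0.02 to 0.29 with 22 filled, and Yijin-tang values from 0.02 to 0.16 with none filled.

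The 22 calls numbered 20 to 22 when any 1 library of the pair was left out, given without the share of all genes. They numbered 16 with library totals alone as the scaling, where 24.5% of all genes passed in either direction. Of the 22 genes, 16 passed under every setting tried. At 100 against 20 µg/mL no gene of the set passed by edgeR or by DESeq2. No gene of all those tested passed by edgeR either (0%). At an unadjusted p below 0.05, 3 of the 40 were higher and none lower, against 3.0% of all genes in either direction. The group means stood in the order of 20, 100 and 500 µg/mL for 31 of the 40, against 24.9% of all genes, and in the opposite order for none.

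In Yijin-tang no mitosis gene passed at 500 against 20 µg/mL by edgeR or by DESeq2, where 1.86% of all genes did, but the estimate was above 0 for all 40, from 0.02 to 0.16 with a median of 0.109 against 0.001 over all genes. At an unadjusted p below 0.05, 24 of the 40 were higher and none lower, against 12.4% of all genes in either direction. In 33 of the 40 every library at 500 µg/mL lay above every library at 20 µg/mL, which 11.5% of all genes showed. CDC20 had the largest estimate (0.16, SE 0.047, adjusted p = 0.0785 by edgeR), with 154, 159 and 163 CPM at 500 µg/mL, against 145, 142 and 139 CPM at 20 µg/mL. PLK1 had 167, 174 and 171 CPM at 500 µg/mL, against 154, 159 and 155 CPM at 20 µg/mL, and CCNB1 had 176, 170.1 and 178 CPM, against 164, 156 and 165 CPM. All 3 genes were separate between the doses. Fitted on these 2 groups alone, with fewer libraries behind the spread, 15 members passed, all higher, against 5.75% of all genes in that fit. AURKB (0.15), KIF20A (0.09), CENPE (0.14) and CENPF (0.10), which were near 0 in Soshiho-tang, lay within the range of the other genes in Yijin-tang. Group means stood in the order of dose for 34 of the 40, against 21.2% of all genes. At 100 against 20 µg/mL none passed by edgeR or DESeq2, where 0% of all genes passed by edgeR. None had an unadjusted p below 0.05, against 3.2% of all genes.

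The difference between the dose effects of the formulas was tested directly, as Soshiho-tang at 500 minus 20 µg/mL against Yijin-tang at 500 minus 20 µg/mL. No member passed by edgeR or DESeq2, against 4.58% of all genes, and the median difference was 0.064 on the log2 scale. At an unadjusted p below 0.05, 3 members were higher and 1 lower, a smaller share than the 15.6% of all genes. Soshiho-tang against Yijin-tang at 500 µg/mL gave 3 genes higher and 1 lower of the 40, where 6.54% of all genes were higher and 6.38% lower (12.9%). CDC25B had 156, 158 and 155 CPM in Soshiho-tang, against 137, 136 and 132 CPM in Yijin-tang (0.21, SE 0.043, adjusted p = 0.0012 by edgeR), and this call was made under every setting tried. CCNB1 (0.13) and UBE2C (0.12) were also higher in Soshiho-tang, with no overlap. CENPE was lower in Soshiho-tang with 60.2, 57.1 and 75.3 CPM, against 76.0, 77.3 and 72.7 CPM in Yijin-tang, and the groups overlapped. Leaving out any 1 of the 6 libraries reduced the 4 calls to 1 or 2, given without the share of all genes. Library totals alone as the scaling left 1 higher and 1 lower, where 12.1% of all genes passed in either direction. At 20 and at 100 µg/mL no member and no other gene passed between the formulas (0%), none of the 40 had an unadjusted p below 0.05, and DESeq2 called none of them.

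**Figure D3:**
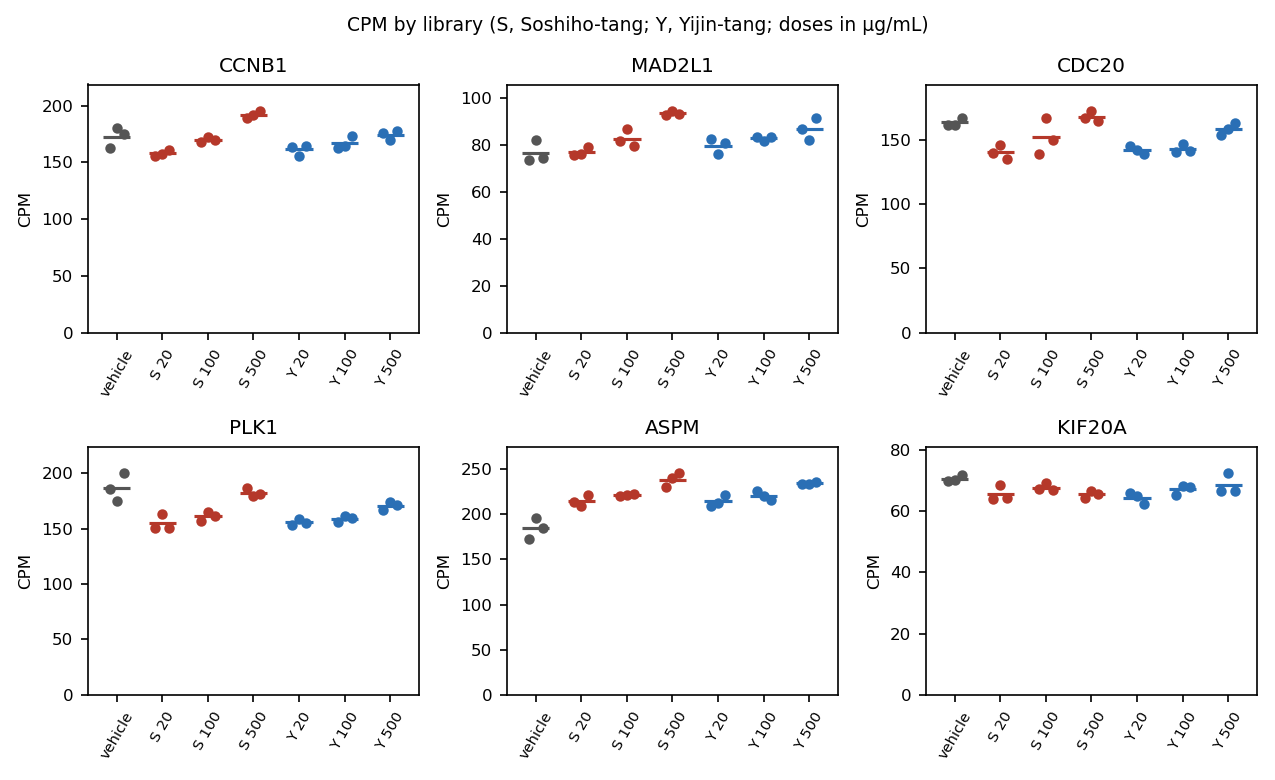
CPM by library (points) with group means (bars) for 6 genes in vehicle, Soshiho-tang (S) and Yijin-tang (Y) at 20, 100 and 500 µg/mL, on axes that start at 0. Means of CCNB1, MAD2L1, CDC20 and PLK1 are highest among the doses at 500 µg/mL, and ASPM is lowest in vehicle. KIF20A means lie between 64.4 CPM in Yijin-tang at 20 µg/mL and 70.6 CPM in vehicle, a difference past edgeR's test.

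Against vehicle, the set split. In Soshiho-tang at 500 µg/mL 18 of the 40 genes rose and 2 fell, where 21% of all genes rose, 18.3% fell and 39.2% passed in either direction. The median log2 fold change was 0.105, against -0.01 over all genes. ASPM had 229.9, 240.2 and 245 CPM at 500 µg/mL, against 173, 196 and 185 CPM in vehicle (0.38, SE 0.041, adjusted p = 3.03e-08 by edgeR). ECT2 had 300.1, 304 and 314 CPM, against 215, 269.5 and 243 CPM in vehicle (0.35). MAD2L1 had 92.7, 94.3 and 92.9 CPM, against 73.6, 81.9 and 74.2 CPM in vehicle (0.30), and these genes were separate from vehicle. CDK1 (0.24), CCNB1 (0.16), CCNA2 (0.16), TTK (0.28), BUB1B (0.19), BUB3 (0.12), KIF11 (0.32), KIF23 (0.28), ANLN (0.26), NUF2 (0.24), CENPF (0.20), TOP2A (0.18), DLGAP5 (0.15), KIF2C (0.12) and KIF4A (0.11) also rose. INCENP (-0.15) and AURKB (-0.13) fell. PLK1 (-0.02), CDC20 (0.05), CDC25B (0.01), PTTG1 (-0.07) and UBE2C (-0.01), which rose against the low dose, did not pass against vehicle.

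The count against vehicle turned on single libraries. Vehicle libraries differed more from each other than the libraries of any Soshiho-tang or Yijin-tang group did. The fit shared an estimate of the spread across these groups, so p-values against vehicle can be too small. Vehicle replicate 1 had the lowest mean log2 CPM over the set among the vehicle libraries, though CDC25B and FOXM1 were highest in it. Without this library, 11 genes rose and 8 fell at 500 µg/mL of Soshiho-tang. Without Soshiho-tang replicate 3, 12 rose and 1 fell, and with only those 2 groups in the fit 6 rose and none fell. The shares of all genes in these refits are not given here, so the counts cannot be set against the background. Of the 20 genes, 6 passed under every setting tried. With every library counted, 16 genes lay wholly above vehicle and 2 wholly below, against 21.4% and 21.8% of all genes.

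At the low dose the genes that passed were mostly lower than vehicle. Soshiho-tang at 20 µg/mL had 3 higher and 8 lower, where 10.6% of all genes were higher and 6.34% lower (16.9% in either direction). Yijin-tang at 20 µg/mL had 3 higher and 11 lower, where 10.3% of all genes were higher and 6.66% lower (17%). At 100 µg/mL each formula had 3 higher and 8 lower. In all genes 11.1% were then higher and 7.05% lower for Soshiho-tang (18.2%), and 11.1% higher and 7.37% lower for Yijin-tang (18.4%). Yijin-tang at 500 µg/mL had 7 higher and 4 lower, where 12.7% of all genes were higher and 8.39% lower (21%). With library totals alone as the scaling, Yijin-tang at 100 µg/mL had 4 higher and 6 lower, where 20.1% of all genes passed in either direction. These comparisons share the vehicle libraries. ASPM, ECT2 and CENPF were the 3 higher at the low and medium doses of both formulas. PLK1, CDC25B, INCENP, TPX2, UBE2C and PTTG1 were lower at the low and medium doses of both. PLK1 at 20 µg/mL had 151, 163 and 151 CPM in Soshiho-tang and 154, 159 and 155 CPM in Yijin-tang, against 186, 175 and 200.0 CPM in vehicle, with log2 fold changes of -0.26 and -0.25. In Yijin-tang at 500 µg/mL, ASPM had 234, 234 and 235 CPM, against 173, 196 and 185 CPM in vehicle (0.36). CENPF (0.29), ECT2 (0.27), KIF11 (0.27), KIF23 (0.21), MAD2L1 (0.19) and ANLN (0.16) rose there too, and CDC25B (-0.19), INCENP (-0.17), UBE2C (-0.13) and PLK1 (-0.12) fell. Without vehicle replicate 1, the low dose gave 2 higher and 20 lower in Soshiho-tang and 1 higher and 23 lower in Yijin-tang. Without vehicle replicate 2, the medium dose gave 8 higher and 9 lower in Soshiho-tang and 9 higher and 9 lower in Yijin-tang. The counts with a library left out are given without the share of all genes in the same fit. They show how the number of calls moved and not whether the set exceeded the background. For Yijin-tang at 500 µg/mL, 3 rose and 2 fell without its replicate 3, 4 rose and 3 fell without its replicate 1, and 5 rose and 1 fell without vehicle replicate 3.

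Exon length went with the differences from vehicle more closely than with the differences between doses. In Soshiho-tang at 20 µg/mL against vehicle, Spearman's rho between log2 fold change and exon length was 0.595 over the 40 genes and 0.209 over 15783 genes with a length. It was 0.56 and 0.224 for Yijin-tang at 20 µg/mL against vehicle. At 500 against 20 µg/mL rho was -0.109 over the 40 genes and 0.011 over all genes in Soshiho-tang, and 0.063 and -0.057 in Yijin-tang. These are descriptions across genes of the same libraries. ASPM with 10.9 kb and CENPF with 11.7 kb of exon were among the longest and higher than vehicle. UBE2C with 1.29 kb and PTTG1 with 2.01 kb were lower at the low dose. MKI67, the longest with 12.8 kb, did not pass in Soshiho-tang at 20 µg/mL, with a mean of 1036 CPM against 1042 CPM in vehicle. CENPE with 9.44 kb had a mean of 64.6 CPM there, against 68.4 CPM in vehicle. Taking a length trend out of each library left 23 of the 40 higher and none lower at 500 against 20 µg/mL of Soshiho-tang, given without the share of all genes. Against vehicle it ended the call of CENPF at 20 µg/mL of Soshiho-tang (0.11, adjusted p = 0.14 by edgeR) and of Yijin-tang (0.10, adjusted p = 0.166 by edgeR). The long ASPM and the short UBE2C and PTTG1 kept their calls at that dose in both formulas with the trend taken out.

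**Figure D4:**
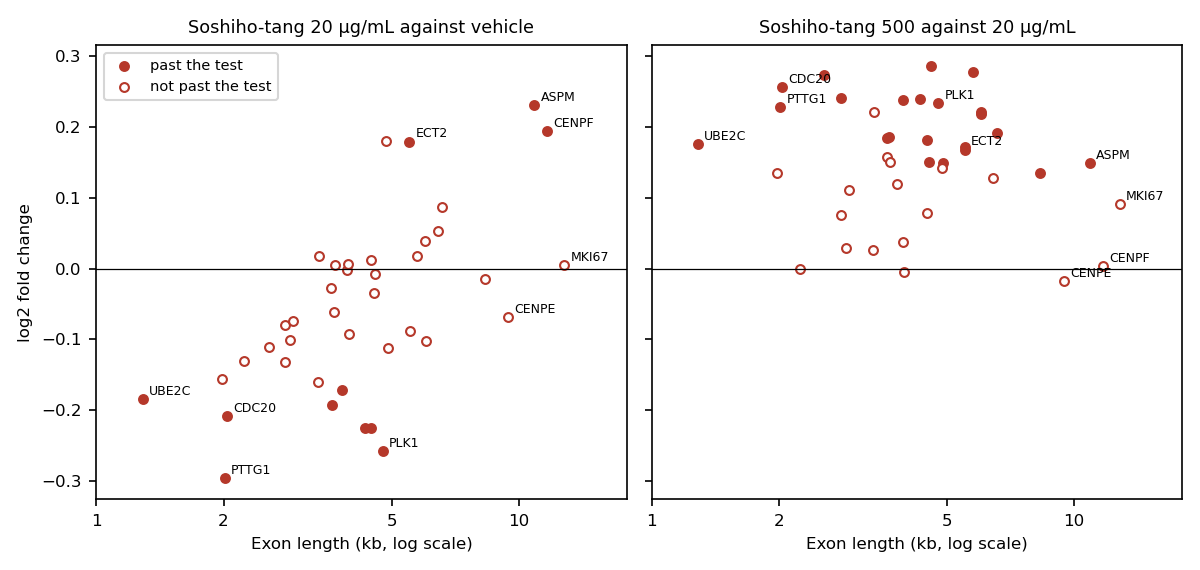
Log2 fold change (vertical axis) of the 40 genes by exon length in kb (log axis), for Soshiho-tang at 20 µg/mL against vehicle (left) and at 500 against 20 µg/mL (right), filled where past edgeR's test. Against vehicle ASPM, CENPF and ECT2 lie above 0 and the short UBE2C, CDC20 and PTTG1 below, but the long MKI67 and CENPE were not higher in mean CPM. On the right most short and most long genes lie above 0, with CENPE, CENPF, AURKB and KIF20A near 0.

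In Okbyeongpung-san 1 of the 40 genes passed at the high dose and none at the others. At 500 µg/mL CDC25B fell, with 129 and 131 CPM, against 166, 151 and 150.1 CPM in vehicle (-0.26, SE 0.066, adjusted p = 0.044 by edgeR), where 4.38% of all genes passed, 2.19% in each direction. With the batch letter as a term in the fit, none of the 40 passed, nor did any when either Okbyeongpung-san library was left out, or without vehicle replicate 3. Without vehicle replicate 1, 7 were lower, and without vehicle replicate 2, 2 were higher and 1 lower, both given without the share of all genes in that fit. At 20 and 100 µg/mL none passed by edgeR (0.273% and 0.108% of all genes). DESeq2 called 3 and 2 lower there, given without the share of all genes that it called. At an unadjusted p below 0.05, 3 were higher and 9 lower at 20 µg/mL, 2 were higher and 4 lower at 100 µg/mL, and 2 were higher and 8 lower at 500 µg/mL. The shares of all genes at that threshold were 19.4%, 15.2% and 21.9% from low to high dose, so the member counts at 100 and 500 µg/mL were near the background. At 500 against 20 µg/mL no member passed by edgeR or DESeq2 (0.558% of all genes), none had an unadjusted p below 0.05, and the median was 0.027. Group means stood in the order of dose for 10 of the 40, against 18.2% of all genes. CENPE split by batch letter, with 73.9, 60.8 and 77.6 CPM from low to high dose in the batch E library and 44.3, 49.4 and 43.4 CPM in the batch D library. With the batch letter as a term, none of the 40 passed at 500 against 20 µg/mL, against 0.349% of all genes. Vehicle has no library in batch D and each dose has 1 library per batch, so a single batch alone gives no test.

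Soyo-san had 1 library per dose, all of batch D, so its differences have no replicate check. At 500 against 20 µg/mL the log2 CPM difference was above 0 for 39 of the 40 genes, against 50.6% of all genes, with a median of 0.116 and a range from -0.02 for NUF2 to 0.53 for CENPF. A 1.2-fold difference was passed upward by 4 members and by 9.48% of all genes, and downward by none and by 14.2%. CENPF had 196, 261 and 282 CPM from low to high dose, and CENPE had 38.3, 49.6 and 51.1 CPM, all below the vehicle range of 65.7 to 71.6 CPM for CENPE. Vehicle is all of batch E, and the batch D libraries of Okbyeongpung-san had 44.3, 49.4 and 43.4 CPM of CENPE. An effect of Soyo-san and an effect of the batch cannot be told apart here. CCNB1 had 169.5, 168 and 183 CPM, PLK1 150.4, 161 and 175 CPM and CDC20 143, 152 and 162 CPM from low to high dose. PLK1 and CDC20 stood in the order of dose and CCNB1 did not. Levels stood in the order of dose for 26 of the 40, against 21.6% of all genes.

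Other genes of the cycle were read from lists outside the 40, and are set beside the 13.3% of all genes that rose and the 13.5% that fell. In Soshiho-tang at 500 against 20 µg/mL, 22 of 59 further mitosis genes rose and none fell, with a median of 0.138. They included CDCA5, which encodes the cohesin protector sororin (0.24), NCAPG2 of condensin (0.20), the anaphase enzyme UBE2S (0.25) and HJURP, which loads CENPA (0.20). Of 15 genes of the anaphase-promoting complex 1 rose, ANAPC1 (0.16), which is a share below that of all genes. Of 11 MuvB, B-MYB and FOXM1 regulators 5 rose and 1 fell: LIN54, the CHR-binding subunit, changed by 0.35, MYBL2, which encodes B-MYB, by 0.19 and TFDP1 by 0.12, while RBL2, which encodes the repressor p130, was at -0.19. Of 30 G1/S and replication genes 14 rose and none fell, among them RRM2 (0.33), CDC6 (0.33), ORC1 (0.33) and CDC25A (0.38). The 14 brakes on the cycle went both ways, 3 rising and 4 falling, over a wider range: BTG2, an antiproliferative gene, was at -1.51 (SE 0.059), CCNG2 at -0.55 and CDKN1C, which encodes p57, at -1.54, while CDKN1A, which encodes p21, was at 0.43 (SE 0.084). In Yijin-tang at 500 against 20 µg/mL, where 1.86% of all genes passed, CDCA5 (0.19) and NCAPG2 (0.16) of the further mitosis genes rose, and ORC6 (0.26), MCM2 (0.16), RRM2 (0.14) and MCM4 (0.12) of the G1/S genes. BTG2 (-0.41) and CCNG2 (-0.26) fell there.

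The promoter letters can be set beside the dose effect. Members were divided by whether CHR letters lay within the 130 bases before and at the gene start. In Soshiho-tang at 500 against 20 µg/mL, the 19 members with CHR letters there had a median of 0.15 with 11 rising. The 14 other members with windows had a median of 0.171 with 6 rising. CHR letters elsewhere in a window were not counted, so some of these 14 may carry them. KIF20A and CCNB1, printed above with CCAAT letters alone, had log2 fold changes of -0.00 and 0.27, and CCNB2 and CDC20, which carry both, had 0.08 and 0.26.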

How the data were processed

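The values the authors deposited are expected counts of reads for each gene, without scaling between libraries. The submitters' processing notes name RSEM 1.3.3 and STAR 2.7.3a with human build GRCh38, besides Trim Galore 0.6.5 and FastQC 0.11.9, and the annotation release is not given in the sources used here. Expected counts share reads between similar sequences, so between 9.52% and 11.5% of a library's values were not whole, and they were rounded here to whole numbers. The table's 30 other columns, nameless and empty, were left out. Symbols came from a table of gene names (56558 identifiers matched), and coordinates and exon lengths from GENCODE release 29.

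Fits used edgeR 4.0.16 in R 4.3.3 (filterByExpr, TMM, robust quasi-likelihood fits, Benjamini-Hochberg adjustment over all genes, threshold 0.05), with SEs from the F statistic. Vehicle, Soshiho-tang and Yijin-tang shared a fit (21 libraries, 15882 genes, biological coefficient of variation 4.71%), and vehicle and Okbyeongpung-san another (9 libraries, 15762 genes, 7.03%). Soyo-san was described by log2 CPM with a prior count of 2. Library totals were 18.5 M to 36.2 M (median 24.2 M). Averaged over genes with a pair count of at least 20, replicate pairs differed by 2.41 to 20.6 chi-square per degree of freedom. By that average the spread between libraries exceeded sampling noise in every pair, which need not hold for each gene. The vehicle pairs lay at 20.6, 20.2 and 11.2, against 2.41 to 7.02 for the Soshiho-tang and Yijin-tang pairs. As the groups of a fit share an estimate of the spread, SEs and p-values against vehicle can understate the spread of vehicle. The scripts were tested on simulated counts. Alternatives were other scalings, no filter, other sets of libraries, a replicate block, the batch letter, mitochondrial genes taken out, DESeq2 1.42.0 and each library left out. Shares of all genes are given for the main fits and for only some of the alternatives.

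The 40 genes, the lists and the tests were chosen with earlier results of these data known. All 40 may be named. Values per library are given for 8 set genes (MKI67, CDK1, CCNB1, PLK1, AURKA, CDC20, TOP2A and FOXM1) and for the 6 others with the smallest adjusted p at 500 µg/mL, and also, chosen after their values were seen, for TTK, CENPE and KIF20A. From each other list up to 4 genes with the smallest adjusted p are named.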

Additional observations from a re-analysis of the deposited data

Results flagged for a closer look

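A difference between the formulas at 500 µg/mL, tested in edgeR's fit, drew attention to 4 of the 40 genes. This share is below the 12.9% of all genes that passed there, so the count is not a result about the set. CDC25B differed by 0.21 on the log2 scale between Soshiho-tang and Yijin-tang, higher in 3 of 3 Soshiho-tang libraries than in every Yijin-tang library. CCNB1 differed by 0.13 and UBE2C by 0.12, with the same separation. CENPE differed by -0.24, with Soshiho-tang libraries at 60.2, 57.1 and 75.3 CPM and Yijin-tang libraries at 76.0, 77.3 and 72.7 CPM. Soshiho-tang replicate 3 lay within the Yijin-tang range for CENPE, and without it the difference was -0.36. CENPE also lost its call when any 1 of the other 5 libraries was left out, with adjusted p-values from edgeR between 0.0586 and 0.22. In the comparison of the dose effects of the formulas, no gene of the 40 passed.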

How the results depend on the processing

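At 500 against 20 µg/mL of Soshiho-tang every setting gave between 16 and 29 genes higher and none lower. The comparisons with vehicle depended on which libraries were in the fit. With only the groups compared in the fit, Soshiho-tang had 1, 3 and 6 calls against vehicle from low to high dose and Yijin-tang 5, 4 and 2, Yijin-tang at 500 against 20 µg/mL had 15, Soshiho-tang against Yijin-tang at 500 µg/mL had 8, the difference of dose effects 2 and Okbyeongpung-san at 500 µg/mL 0. Each library left out in turn gave 10 to 22 calls for Soshiho-tang at 20, 8 to 17 at 100 and 13 to 22 at 500 µg/mL against vehicle. It gave 10 to 24, 8 to 18 and 5 to 15 for Yijin-tang at those doses, 0 to 6, 0 to 1 and 0 to 7 for Okbyeongpung-san, 20 to 22 for Soshiho-tang at 500 against 20 µg/mL, 1 to 2 for Soshiho-tang against Yijin-tang at 500 µg/mL, 0 to 1 for the difference of dose effects and 0 for the other comparisons. Where 1 Okbyeongpung-san library is left, it is assumed to vary like the other groups. Counts in this section are given without the share of all genes in each setting, so they show only how the number of calls moved.

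With no filter on low counts, Yijin-tang at 500 against 20 µg/mL had 1 call, Soshiho-tang against Yijin-tang at 500 µg/mL 2, and Okbyeongpung-san 3 at 20 and 1 at 100 µg/mL. Library totals alone gave 2 for the formulas at 500 µg/mL and 0 for Okbyeongpung-san at 500 µg/mL, as did the batch letter as a term there. Okbyeongpung-san against vehicle had 12, 5 and 11 calls from low to high dose with all 30 libraries in the fit, and 3, 2 and 2 with DESeq2. Taking out an exon length trend, chosen after seeing the data, gave 7 for Yijin-tang at 100 µg/mL against vehicle and 1 for Yijin-tang at 500 against 20 µg/mL. The cause of these changes was not tested. Among genes that passed or have values per library, none changed sign between settings of a comparison where it passed in either, and sign changes among values that passed in neither were not counted.

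In Soshiho-tang and Yijin-tang replicate numbers did not pair the libraries: over 15 pairs of groups, none of 45 same-numbered pairs of libraries had deviations from group means that correlated at 0.1 or more (range -0.064 to 0.094). In Okbyeongpung-san the number goes with the batch letter at every dose, and deviations correlated at 0.001 to 0.049 over 3 pairs of doses. Vehicle has no such tie, and its same-numbered pairs with Okbyeongpung-san lay at -0.077 to -0.001. With the replicate block, Soshiho-tang at 500 against 20 µg/mL had 23 calls and against vehicle 21, Yijin-tang at 500 against 20 µg/mL had 1 and against vehicle 12, and Okbyeongpung-san against vehicle had 4, 1 and 5 from low to high dose and none at 500 against 20 µg/mL.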
